A study of Mus musculus with 6 samples.

Results

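The E2F and Rb family transcripts described here are the 10 genes E2f1 to E2f8, Rb1 and Rbl1, taken by symbol from the 23038 genes that each library lists. They were measured in mouse primary oligodendrocyte precursor cells (mOPCs), purified by immunopanning from embryos at E14.5. The cells were transfected with control siRNAs (siNC, n = 3) or with siRNAs against Qk (siQk, n = 3) and collected 72 h later, and no genetic change is stated for either group. The study used 3 different Qk siRNAs, and which of them a library received is not given in the labels. The deposited values are tag numbers per gene, which are estimated counts, and RPKM, the tag number scaled to exon length and to the total of the library.

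E2F proteins are transcription factors that bind DNA near the start sites of cell cycle genes, most of them together with a dimerization partner (DP) protein. E2f1, E2f2 and E2f3 are the classical activators, which drive entry into S phase. E2f4 and E2f5 mostly repress in resting cells, bound to the pocket proteins Rb1, Rbl1 and Rbl2. E2f6 represses without pocket proteins, as part of a variant Polycomb complex, and E2f7 and E2f8 are atypical repressors that bind without a DP partner. Cyclin-dependent kinases phosphorylate the pocket proteins in G1 and so release E2Fs, and in the oligodendrocyte (OL) lineage withdrawal from the cell cycle accompanies the step from precursor to myelinating cell.

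The libraries held 58166490 to 141045937 tags, the smallest being siNC replicate 1, of which 21057 to 63173 lay on the 10 genes. The targeted gene, Qk, averaged 193 ± 25.9 RPKM in siNC (SD, n = 3) and stood at 51.3, 76.6 and 36.2 RPKM in siQk replicates 1, 2 and 3 (log2 fold change -1.98, standard error 0.28, edgeR FDR 0.00311). The cells carried markers of their labelled type: each of the 10 OPC markers was above 1 RPKM in every library. Their summed level was 1050 to 1126 RPKM in siNC and 1273 to 1438 RPKM in siQk, by library size only. Of these 10 genes, 4 were called higher and 1 lower. The 7 markers of mature OLs used here were also present, with a summed level of 1759 to 2753 RPKM in siNC and 841 to 1138 RPKM in siQk, and 6 of these 7 genes were called lower. Of the neural stem cell markers, 1 of the 4 tested, the Notch target Hes5, was called (23.0 ± 3.85 RPKM in siNC and 95.1 ± 3.40 RPKM in siQk), and 2 astrocyte markers were called lower and 2 neuron markers higher, of 5 tested in each list. Over all 12505 transcripts tested, 31.0% were called, 13.8% higher and 17.2% lower. Microglial C1qa and endothelial Cldn5 were listed at 0 in every library, while neuronal Stmn2 and astrocytic Gja1 were under 1 RPKM. Some other markers of these last lists were abundant: the 6 astrocyte markers summed to 269 to 383 RPKM in siNC and 273 to 296 RPKM in siQk, with S100b the highest, and the 6 neuron markers to 102 to 172 RPKM and 81.4 to 120.3 RPKM, with Tubb3 the highest. These cultures are bulk samples, in which fewer cells of a type and less RNA per cell cannot be told apart. The part that these markers play in the results below was not tested.

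Of the 10 family members, 4 were called changed between siNC and siQk, against 31.0% of the 12505 transcripts tested. Called means P below 0.01 and FDR below 0.1 in edgeR's quasi-likelihood test, with TMM scaling of the libraries and the adjustment over all genes tested. The RPKM values carry no TMM factors, which ran from 0.899 to 0.987 in siNC and from 1.04 to 1.07 in siQk. Mean RPKM can therefore rise where the log2 fold change is negative, as for E2f6 and Rbl2 below. E2f2 and E2f7 were higher in siQk, where 13.8% of all tested transcripts were called higher. E2f5 and Rb1 were lower, where 17.2% were called lower. Without TMM factors, by library size only, the transcripts split into 2989 higher and 1365 lower, against 1730 and 2149 here. The remaining members, E2f1, E2f3, E2f4, E2f6, E2f8 and Rbl1, did not pass. RPKM ranges of siNC and siQk did not overlap for 5 of the 10 members, against 58.3% of the tested transcripts. Those were the called genes E2f2, E2f5 and E2f7 and also E2f3 and E2f4, which were not called. The median absolute log2 fold change was 0.40 over the members and 0.25 over all tested genes. All 10 members passed the filter on low counts.

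**Figure D1:**
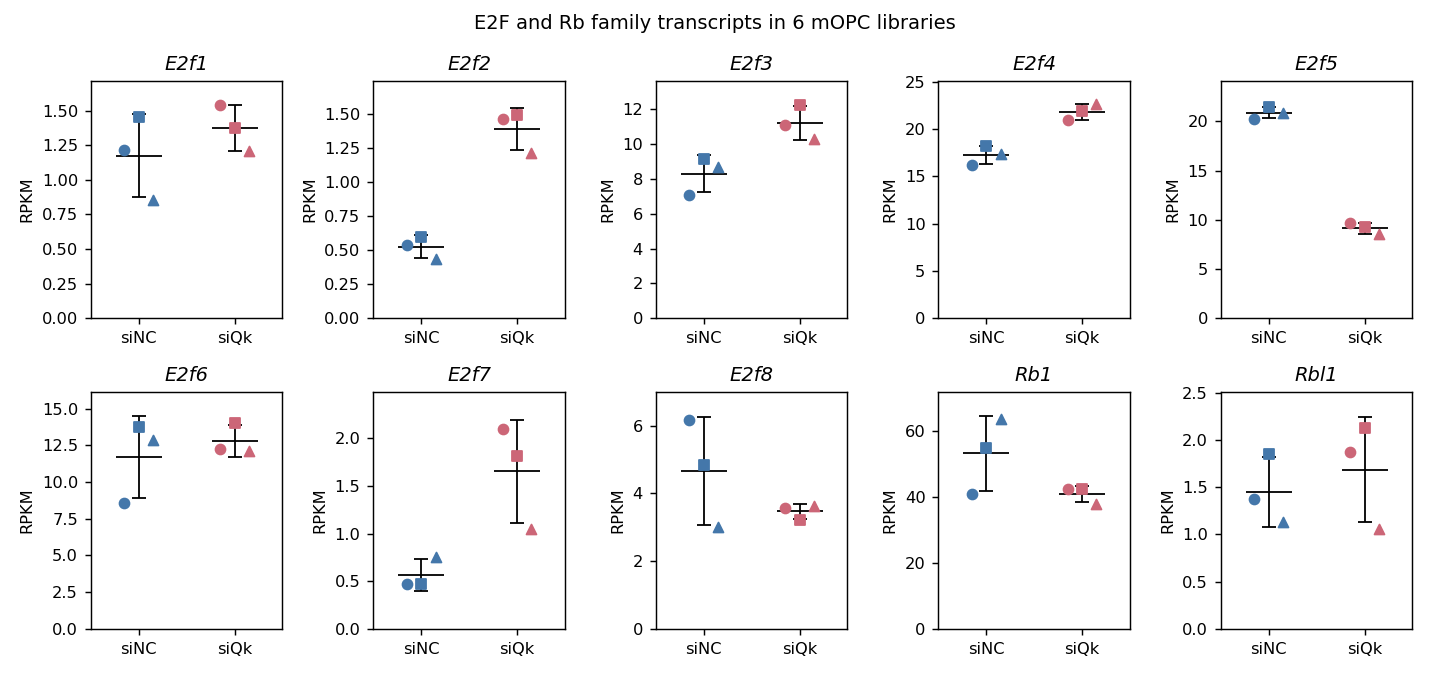
RPKM of each member (vertical axis, from 0) in the 3 siNC and 3 siQk libraries. Circles, squares and triangles are replicates 1, 2 and 3, the horizontal line is the mean and the bar is the SD. E2f5 fell from 20.9 to 9.15 RPKM with little spread, and E2f2 and E2f7 rose from low levels. The siNC values of E2f1, E2f6, E2f7, E2f8, Rb1 and Rbl1 spread widely (SD 21.5% to 34.1% of the mean). So did the siQk values of E2f7 (32.7%) and Rbl1 (33.1%).

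Sequences around the start sites are shown for the 4 members whose window holds a consensus E2F word. E2F genes are themselves known targets of E2F proteins. Of the 4, 2 rose and 2 were not called, and the part of the words in this was not tested. The windows run from 250 bases before to 50 bases after the RefSeq start site (GRCm38.p6, the assembly of mm10), written 5′ to 3′ on the strand of the gene. The words searched, on both strands, were TTTCCCGC, TTTCGCGC, TTTGCCGC and TTTGGCGC, and capitals mark the match. The first window is that of E2f2 (chr4:136172024-136172323, plus strand), with a match 40 to 47 bases after the RefSeq start, which lies 120 bases upstream of the GENCODE M21 start used below. The second is that of E2f7 (chr10:110745189-110745488, plus strand), with an antisense match at -198 to -191. The third is that of E2f3 (chr13:29986014-29986313, minus strand), with an antisense match at -11 to -4. The fourth is that of Rbl1 (chr2:157204485-157204784, minus strand), with a match at -18 to -11.
E2f2: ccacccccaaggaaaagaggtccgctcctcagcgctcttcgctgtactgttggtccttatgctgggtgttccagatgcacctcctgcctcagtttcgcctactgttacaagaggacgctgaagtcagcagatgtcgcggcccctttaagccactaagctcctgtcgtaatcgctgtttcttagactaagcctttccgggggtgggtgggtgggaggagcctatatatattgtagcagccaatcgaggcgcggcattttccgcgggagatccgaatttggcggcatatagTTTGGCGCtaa
E2f7: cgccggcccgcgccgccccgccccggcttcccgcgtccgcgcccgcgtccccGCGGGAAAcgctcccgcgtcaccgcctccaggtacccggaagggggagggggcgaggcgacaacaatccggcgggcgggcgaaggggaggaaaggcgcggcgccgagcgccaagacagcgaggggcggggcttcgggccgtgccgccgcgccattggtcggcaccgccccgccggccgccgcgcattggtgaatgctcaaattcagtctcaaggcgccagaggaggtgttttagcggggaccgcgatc
E2f3: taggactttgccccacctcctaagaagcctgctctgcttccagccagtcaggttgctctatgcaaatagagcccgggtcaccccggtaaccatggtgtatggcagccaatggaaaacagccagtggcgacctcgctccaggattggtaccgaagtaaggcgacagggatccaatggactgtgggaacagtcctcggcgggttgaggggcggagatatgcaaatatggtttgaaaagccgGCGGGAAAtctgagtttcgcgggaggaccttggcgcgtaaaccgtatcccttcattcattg
Rbl1: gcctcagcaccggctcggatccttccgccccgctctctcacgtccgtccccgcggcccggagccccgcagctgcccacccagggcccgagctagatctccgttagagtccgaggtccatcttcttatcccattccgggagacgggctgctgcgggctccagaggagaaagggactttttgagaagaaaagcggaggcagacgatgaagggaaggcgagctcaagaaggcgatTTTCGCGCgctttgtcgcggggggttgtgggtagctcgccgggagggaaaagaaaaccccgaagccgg

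Windows were available for 7 of the 10 members, E2f1, E2f2, E2f3, E2f6, E2f7, E2f8 and Rbl1, and not for E2f4, E2f5 and Rb1. E2f2 and E2f3 each have a further window without a match. None of the words was found in the windows of E2f1, E2f6 and E2f8, and the E2f1 window lies 466 bases inside the gene as GENCODE M21 places its start. Among the 8928 tested genes with a window, 4.88% held a word. The share was 5.81% (74 of 1274) for genes called higher in siQk, 3.11% (47 of 1512) for those called lower and 5.13% (315 of 6142) for those not called. It was 11 of 19 for the classical S-phase targets of E2F described below and 1 of 10 for the mitotic genes. A match says only that these letters are in the window. Of the 4 members printed above, E2f2 and E2f7 were called higher, while E2f3 and Rbl1 were not called.

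E2f2 (Entrez gene 242705), an activator, had the lower FDR of the 2 members that rose. It lies on chromosome 4 (136172394 to 136196057, plus strand, GRCm38). Its level was 0.537, 0.600 and 0.433 RPKM in siNC replicates 1, 2 and 3 and 1.46, 1.49 and 1.21 RPKM in siQk replicates 1, 2 and 3. Every siQk library thus stood above every siNC library, and the lowest siQk value was above the highest siNC value by more than the spread within either group. The log2 fold change was 1.26 (standard error 0.18, edgeR FDR 0.00316), which is 2.39-fold. These levels rest on 148 to 315 tags in siNC and 585 to 977 tags in siQk.

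E2f1 (Entrez gene 13555, chromosome 2, 154559407 to 154569892, minus strand), the founding activator, was not called. It was at 1.22, 1.45 and 0.856 RPKM in siNC and at 1.54, 1.37 and 1.21 RPKM in siQk, so that the groups overlapped. The log2 fold change was 0.071 (standard error 0.23, edgeR FDR 0.824). The spread of E2f1 was 25.6% of its mean in siNC, and the sign of its change turned when siNC replicate 3 or siQk replicate 1 was left out. The ratio of E2f2 to E2f1, both in RPKM, was 0.453 ± 0.0476 in siNC and 1.01 ± 0.0694 in siQk (SD, n = 3 each).

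E2f3 (Entrez gene 13557, chromosome 13, 29906575 to 29986063, minus strand) was the most abundant activator in all 6 libraries. It was at 7.10, 9.15 and 8.67 RPKM in siNC and at 11.1, 12.2 and 10.3 RPKM in siQk, with no overlap. Its log2 fold change of 0.28 (standard error 0.093, edgeR FDR 0.0506) met the FDR cutoff but not the P cutoff. The call depended on the scaling: with upper quartile factors or library size only it passed, with log2 fold changes of 0.35 and 0.43, and it also passed without siNC replicate 2 (0.35). E2f3 has a long and a short isoform from different start sites, which gene-level tag numbers do not separate.

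Of E2f4 and E2f5, the pocket-protein-bound repressors, E2f5 fell and E2f4 was not called. E2f5 (Entrez gene 13559, chromosome 3, 14578641 to 14606309, plus strand) had the most even siNC values of the family, at 20.3, 21.5 and 20.9 RPKM in siNC and 9.64, 9.25 and 8.57 RPKM in siQk. The groups were separated by more than 10 RPKM. The log2 fold change was -1.34 (standard error 0.075, edgeR FDR 0.000348), so that E2f5 was 2.54-fold lower in siQk. E2f4 (Entrez gene 104394, chromosome 8, 105297663 to 105305370, plus strand) was at 16.2, 18.2 and 17.3 RPKM in siNC and at 21.0, 21.9 and 22.7 RPKM in siQk, without overlap. Its log2 fold change was 0.19 (standard error 0.067, edgeR FDR 0.0649), short of the P cutoff, and it passed with upper quartile factors (0.25) and with library size only (0.34). The ratio of E2f4 to E2f5 was 0.800, 0.849 and 0.829 in the siNC libraries and 2.17, 2.37 and 2.64 in the siQk libraries. E2f5 was thus the higher of the pair in each siNC library and E2f4 the higher in each siQk library.

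E2f6 (Entrez gene 50496, chromosome 12, 16810963 to 16839742, plus strand) was at 8.54, 13.7 and 12.9 RPKM in siNC and at 12.2, 14.0 and 12.1 RPKM in siQk. The groups overlapped, and siNC replicate 1 stood below the other 5 values. That library was the smallest and gave 3.11% of its tags to Rn45s, the ribosomal RNA precursor (0.169% to 0.389% elsewhere), and it also held the highest E2f8 and the lowest Rb1 value of siNC. The part of this difference in the values was not tested. The log2 fold change was -0.020 (standard error 0.15, edgeR FDR 0.927), and its sign changed with the scaling and with single libraries left out. Of the 9 genes of the Polycomb complex that contains E2f6, 3 were called, a share near the 31.0% of all tested transcripts: Rnf2, its ubiquitin ligase, rose (log2 fold change 0.69), L3mbtl2 rose (0.30) and Yaf2 fell (-0.85). The median over these 9 was 0.078, against 0.010 over all tested genes. Of 7 germline genes known to be silenced through E2f6, 5 were below the filter on low counts. Stag3 (log2 fold change 0.75, edgeR FDR 0.0824) and Tdrkh (0.13, FDR 0.229) were tested but not called. Tdrkh was not silent in these cells, with means of 31.0 RPKM in siNC and 37.7 RPKM in siQk, while Stag3 averaged 0.322 and 0.602 RPKM.

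Of the atypical repressors, E2f7 rose and E2f8 was not called. E2f7 (Entrez gene 52679, chromosome 10, 110745439 to 110787384, plus strand) was at 0.469, 0.468 and 0.757 RPKM in siNC and at 2.10, 1.81 and 1.05 RPKM in siQk. The groups did not overlap, with siQk replicate 3 the nearest to siNC. The log2 fold change was 1.40 (standard error 0.29, edgeR FDR 0.0117), or 2.64-fold. With 1 library left out it ran from 1.19 without siQk replicate 1 to 1.64 without siNC replicate 3. E2f7 stayed called in each of these fits, but close to the P cutoff of 0.01 in some. The edgeR P was 0.00959 without siNC replicate 1 and 0.00988 without siNC replicate 2. E2f8 (Entrez gene 108961, chromosome 7, 48866429 to 48881596, minus strand) was at 6.17, 4.84 and 3.00 RPKM in siNC and at 3.56, 3.23 and 3.62 RPKM in siQk, with siNC replicate 3 below every siQk library. Its log2 fold change was -0.59 (standard error 0.27, edgeR FDR 0.127) and was not called. Without siNC replicate 3 it was called (-0.85, edgeR FDR 0.0107), and without siNC replicate 1 it was -0.29 (FDR 0.348). Of the annotated exonic bases of E2f8, 11.2% are shared with Gm2788, a transcript on the opposite strand, whose reads an unstranded library does not separate. The ratio of E2f7 to E2f8 ranged from 0.0760 to 0.252 in siNC and from 0.290 to 0.589 in siQk.

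Rb1 (Entrez gene 19645, chromosome 14, 73183673 to 73325822, minus strand), the retinoblastoma pocket protein gene, was the most abundant member in every library. It was at 41.0, 55.0 and 63.7 RPKM in siNC and at 42.4, 42.3 and 38.0 RPKM in siQk. siNC replicate 1 lay within the siQk range, so that the groups overlapped in RPKM although Rb1 was called lower (log2 fold change -0.52, standard error 0.13, edgeR FDR 0.0200). Among the scalings and the left-out libraries, the call was lost with upper quartile factors (-0.46) and library size only (-0.38), and when siNC replicate 2 or 3 or any siQk replicate was left out (-0.55 to -0.40). Without siNC replicate 1 it was kept at -0.65, and FDR ran from 0.000726 to 0.0763 over the 15 alternatives. Lpar6, which lies within Rb1 on the opposite strand, and Rcbtb2, which overlaps it on that strand too, share 6.78% and 8.11% of the annotated exonic bases of Rb1, and neither was called (log2 fold changes 0.19 and -0.065).

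Rbl1 (Entrez gene 19650, chromosome 2, 157145893 to 157204534, minus strand), which encodes the pocket protein p107 and is itself a known E2F target, was at 1.37, 1.85 and 1.13 RPKM in siNC and at 1.88, 2.12 and 1.06 RPKM in siQk. The groups overlapped, with replicate 3 lowest in both. The log2 fold change was 0.060 (standard error 0.29, edgeR FDR 0.884), and its sign turned without siNC replicate 3, siQk replicate 1 or siQk replicate 2. The remaining pocket protein gene, Rbl2, averaged 21.9 ± 0.441 RPKM in the siNC libraries and 22.8 ± 1.08 RPKM in the siQk libraries (SD, n = 3 each), with a log2 fold change of -0.089 (edgeR FDR 0.261).

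**Figure D2:**
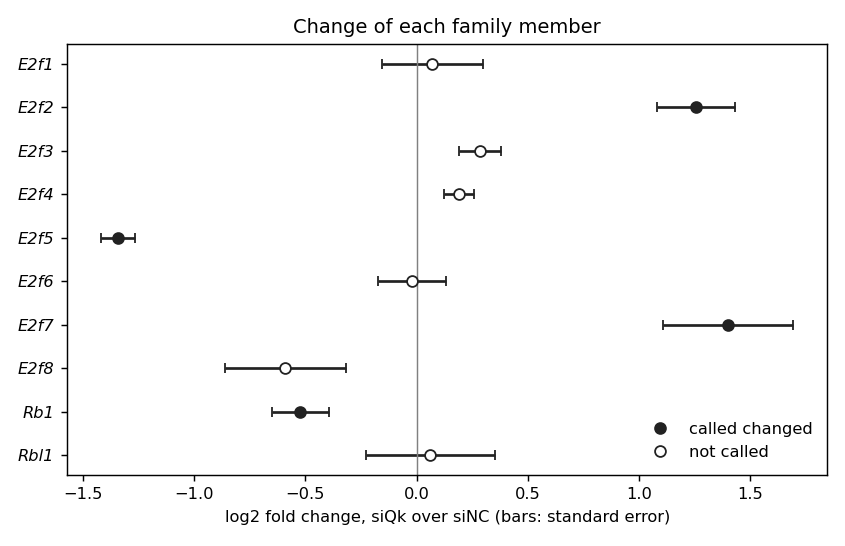
Log2 fold change of siQk over siNC for each member (horizontal axis), with bars for the standard error from edgeR. Filled points were called changed and open points were not. E2f7 and E2f2 lie at 1.40 and 1.26, E2f5 at -1.34 and Rb1 at -0.52.

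By level per length, the family in siNC ran in the order Rb1, E2f5, E2f4, E2f6, E2f3, E2f8, Rbl1, E2f1, E2f7 and E2f2, from 53.2 to 0.523 RPKM. In siQk the order was Rb1, E2f4, E2f6, E2f3, E2f5, E2f8, Rbl1, E2f7, E2f2 and E2f1, from 40.9 to 1.37 RPKM. Neighbours whose ranges overlapped were E2f6 and E2f3 in both groups, Rbl1 and E2f1 as well as E2f7 and E2f2 in siNC, and the last 4 genes in siQk. The summed RPKM of the 8 E2f genes was 65.1 ± 4.70 in siNC and 62.9 ± 2.32 in siQk. The means differed by less than the spread between libraries on this scale, which uses library size only. Division by the TMM factors (0.899 to 0.987 in siNC, 1.04 to 1.07 in siQk) would raise the siNC sums and lower the siQk sums. The sum was not compared on that scale. Within that sum, E2f5 made up 32.2% ± 1.41 in siNC and 14.6% ± 0.742 in siQk. The share of E2f4 was 26.5% ± 0.419 in siNC and 34.8% ± 2.16 in siQk. The activators E2f1 to E2f3 together made up 15.3% ± 0.703 in siNC and 22.2% ± 1.10 in siQk, with E2f3 at 12.7% and 17.8%. These shares do not depend on the scaling of the libraries.

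**Figure D3:**
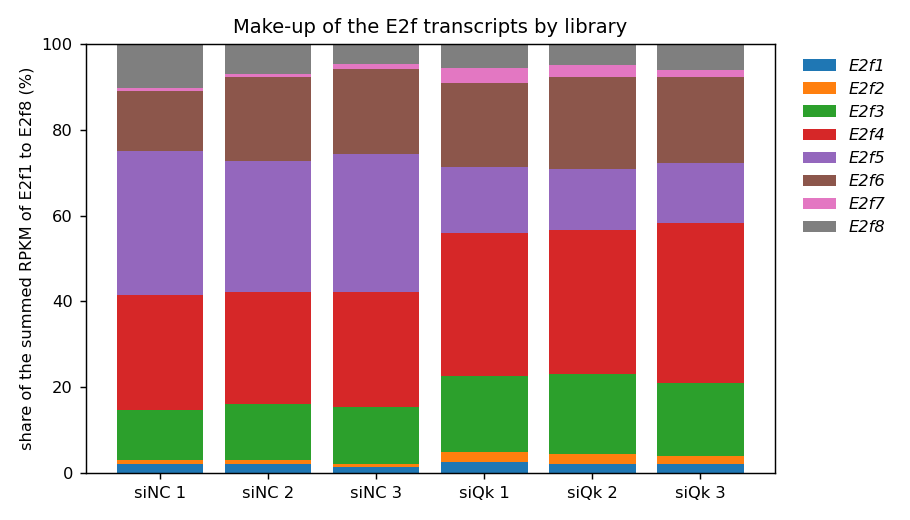
Share of each E2f gene in the summed RPKM of E2f1 to E2f8 (vertical axis, percent), one bar for each library. E2f5 takes 30.7% to 33.5% of each siNC bar and 14.1% to 15.4% of each siQk bar, and E2f3 and E2f4 are wider in siQk.

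Genes that act with the family or downstream of it were taken as lists. Of 10 DP partner and MuvB or DREAM genes, some of which form complexes with E2Fs and pocket proteins, 4 were called higher and 1 lower, with a median log2 fold change of 0.003. For these lists, the share over all tested transcripts was 31.0% called, 13.8% higher and 17.2% lower. The mitotic transcription factor genes Foxm1 (1.33) and Mybl2 (1.06) and the MuvB core genes Lin9 (0.76) and Lin37 (0.32) rose, and the MuvB core gene Lin52 (-0.31) fell. Tfdp1, which encodes the main DP partner, averaged 65.9 ± 9.19 RPKM without and 65.8 ± 1.70 RPKM with Qk siRNA and was not called. Of 8 genes for G1 cyclins and kinases, 7 were tested and 1 was called, the cyclin D gene Ccnd3 (log2 fold change -0.52, edgeR FDR 0.00757). Of 7 CDK inhibitor genes, 1 was called, Cdkn1a (p21), which was lower (log2 fold change -0.51, edgeR FDR 0.0295) with overlapping RPKM ranges, and no inhibitor was called without siNC replicate 2 or 3 or without siQk replicate 2 or 3.

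Of 23 classical E2F targets of S phase, 11 were called higher and none lower, against 13.8% and 17.2% of all tested transcripts. The median log2 fold change was 0.74 against 0.010 over all tested genes. The cyclin A gene Ccna2 had the highest log2 fold change of them (1.40), with 8.85 ± 1.12 RPKM in siNC against 26.0 ± 9.10 RPKM in siQk (SD, n = 3 each). It was followed by the replicative helicase gene Mcm5 (1.26), with 4.09 ± 0.956 RPKM against 10.9 ± 3.22 RPKM. At the other end of the called genes were Mcm7 (0.60) and the histone methyltransferase gene Ezh2 (0.33). Pcna, the sliding clamp of replication, had a log2 fold change of -0.064 and was not called. The count fell from 11 to 7 without siNC replicate 2, siNC replicate 3 or siQk replicate 1, and was 18 with library size only.

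All 12 of the mitotic genes taken as MuvB targets were called higher, against 13.8% of all tested transcripts, with a median log2 fold change of 1.73. All 12 were also called in each of the 15 alternatives. They ran from Cdk1, the mitotic kinase (1.38), and Birc5 (1.42) to the kinesin gene Cenpe (2.05) and the phosphatase gene Cdc25c (2.23). Their summed level was 42.3 to 44.7 RPKM in siNC and 200.1, 153 and 102 RPKM in siQk replicates 1, 2 and 3. Among the siQk libraries, replicate 3 was the lowest for this sum and for Foxm1 (7.18, 6.06 and 3.96 RPKM in replicates 1, 2 and 3). It also had the lowest Qk level. The share of all tested genes that were lowest in that library was not counted, and a link to the Qk level was not tested. Mki67, the proliferation marker, is itself among the 12 mitotic genes and part of their sum. It averaged 2.97 ± 0.277 RPKM in siNC and was at 13.7, 12.2 and 7.14 RPKM in the siQk libraries. The median log2 fold change over the family was 0.065, and no test was made between the family and these lists. The lists were chosen with the rise of cell cycle genes in these data already known.

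**Figure D4:**
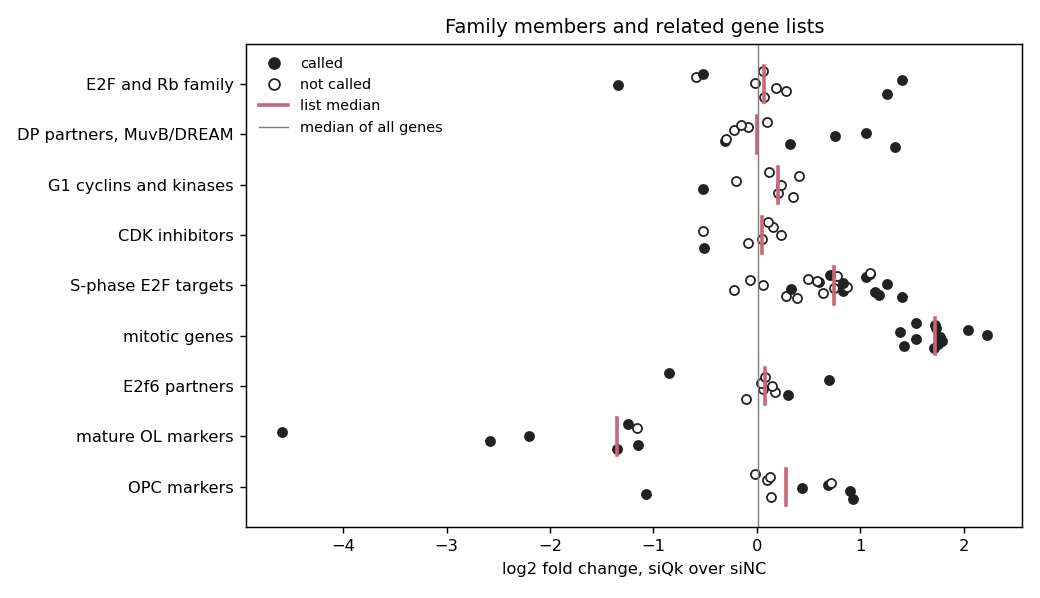
Log2 fold change of siQk over siNC (horizontal axis) for the tested genes of the family and of related lists, one point for each gene, filled where called. Red bars are list medians and the grey line is the median of all tested genes. All 12 mitotic genes lie at 1.38 or above, while the family spreads from -1.34 to 1.40.

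**Figure D5:**
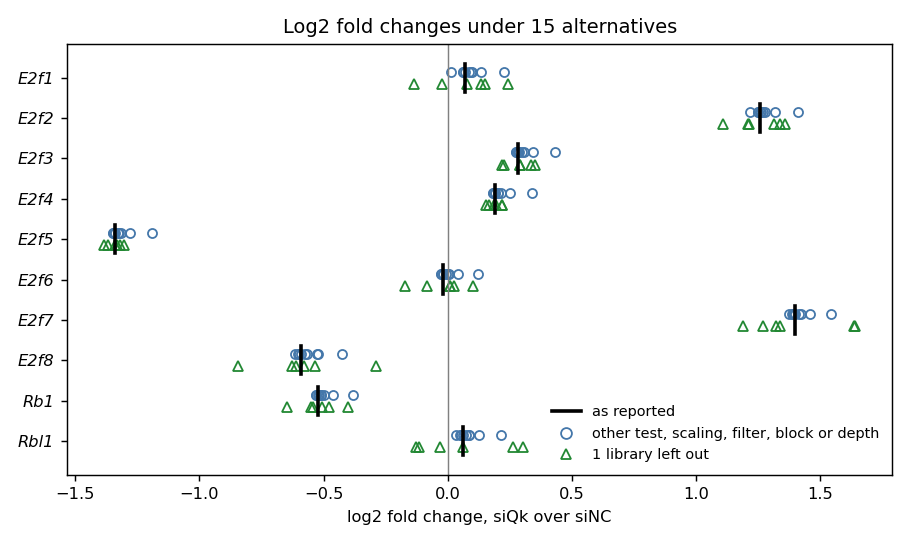
Log2 fold change of each member (horizontal axis) as reported (black bar), under other tests, scalings, filters, a block or thinned depth (blue circles), and with 1 library left out (green triangles). E2f2, E2f5 and E2f7 stay far from 0 in all 15 alternatives, while E2f1, E2f6 and Rbl1 lie on both sides of it.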

How the data were processed

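Poly(A) RNA was sequenced as paired-end reads after an unstranded TruSeq preparation. The authors used OLego for alignment (mm10) and Quantas for gene quantification. Their versions and the gene annotation are not given in the sources used here. The authors deposited, per the file headers, an estimated count (tag number), the exon length and the RPKM of each gene, and 23.1% to 26.2% of tag numbers carry decimals. Values of genes that overlap others are uncertain.

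Tag numbers were rounded and tested with edgeR 4.0.16 (quasi-likelihood, limma 3.58.1, R 4.3.3), with group as the only term, on 12505 genes with an average logCPM over 0. A step on simulated data came first. Each standard error is the size of the log2 fold change over the root of the F statistic. An exact permutation test (two-sided) of a single value cannot go below 0.1 with groups of 3. The study describes independent replicates. Nothing in the labels ties a library to an animal, so that p-values measure the spread between these libraries. No pair of one group agreed within sampling noise (chi-square per degree of freedom 36.3 or more).

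The members and lists were chosen with earlier results of these data known. Named genes are Qk, the 10 members, and of each list the called genes (where over 4, the 2 highest and 2 lowest log2 fold changes). Of each marker list they are defining markers at or near 0 or the most abundant gene. Lin9, Rbl2, Tfdp1, Pcna, Stag3, Tdrkh, Rn45s, Foxm1 by library and overlapping genes were chosen after their values were seen. A further marker of mature OLs is not reported here. Positions are from GENCODE M21 (GRCm38) and promoter windows from RefSeq (GRCm38.p6). The alternatives were DESeq2 1.42.0, other scalings, filters and cutoffs, a replicate block, thinned libraries and each library left out.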

Additional observations from a re-analysis of the deposited data

How the results depend on the processing

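Qk kept its direction and call in all 15 alternatives. E2f2 and E2f5 did too, with log2 fold changes from 1.11 to 1.41 and from -1.38 to -1.19. Over the 10 members, 123 of 150 values kept their sign and their side of the cutoff, 9 lost a call, 6 gained one and 12, none of them called, changed sign. The sign changes were in members near 0: E2f6 with upper quartile factors (0.041), library size only (0.12) and no filter on low counts (0.004). With 1 library left out, E2f1 ran from -0.14 to 0.24, E2f6 from -0.17 to 0.10 and Rbl1 from -0.13 to 0.30. The replicate numbers were not taken as pairs (correlations of deviations -0.0528, -0.152 and -0.34, and 0 of 6 libraries closest to their own number). With the replicate block 2 members were called, E2f2 and E2f5, while E2f7 (1.38, edgeR FDR 0.0483, over the alternatives 1.69e-05 to 0.0483) and Rb1 (-0.51, FDR 0.0566) missed the P cutoff, 0 CDK inhibitors were called, against 1, and 2796 transcripts were called. Leaving out 1 library gave 3 to 4 called members and 2470 (without siQk replicate 1) to 3712 changed transcripts, against 3879. Library size only raised the median of all tested genes to 0.16 and gave 2989 transcripts higher and 1365 lower, against 1730 and 2149, and upper quartile factors gave 2234 and 1785. Both settings called 4 members higher and 1 lower. Mean RPKM moved by an SD or more in 2 of 80 values, both after division by the TMM factor: E2f4 in siQk (20.7) and E2f5 in siNC (22.0). Limma on log2(RPKM + 0.1) was left out, as the tag numbers allow a count test. Causes were not tested. Thinning all libraries to the smallest left the same 4 members called.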
